A study of Mus musculus with 8 samples.

Results

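These 10 genes set the shape, number and turnover of mitochondria, and were followed in the retina of mice given MPTP, a neurotoxin, or saline. They are Mfn1, Mfn2 and Opa1 (fusion), Dnm1l, Fis1 and Mff (fission), Bnip3, Bnip3l and Fundc1 (mitophagy receptors) and Ppargc1a (biogenesis). They were chosen by name for these roles, and all 10 of the 10 were measured among 19938 genes.

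The retinas came from 4 groups of male C57BL/6 mice aged 6 weeks at the start: MPTP at 1 week (7 days), saline at 1 week, MPTP at 4 weeks (28 days) and saline at 4 weeks. Each group had 6 mice and was read on 2 arrays, each with RNA pooled from 4 retinas. The labels name no allele and no other agent, and give neither the dose nor the schedule of MPTP. Nothing in the labels ties the pooled retinas to separate mice, so a p-value here covers only the spread from array to array.

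Mitochondria join when the mitofusins (Mfn1 and Mfn2) tether and merge outer membranes and Opa1 merges inner membranes. They divide when the dynamin-related GTPase encoded by Dnm1l is drawn to the outer membrane by adaptors such as Mff and Fis1. Damaged mitochondria are cleared by mitophagy, in which the outer-membrane receptors Bnip3, Bnip3l and Fundc1 bind the autophagy machinery directly, and Ppargc1a encodes the coactivator PGC-1alpha, which switches on genes for new mitochondria. Photoreceptors are densely packed with mitochondria, and the metabolite of MPTP, MPP+, inhibits complex I of the respiratory chain after entering dopaminergic cells, which in the retina are a small class of amacrine cells.

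The promoters of 3 of these genes are shown because Ppargc1a and Opa1 had the highest and the lowest difference between MPTP and saline, and Bnip3 is a known target of the hypoxia factor HIF. Each sequence is the 250 bases before the RefSeq gene start (build GRCm38.p6), read 5′ to 3′ on the gene's own strand. Capitals mark the motif matches named below, except a match in the Ppargc1a window that overlaps the marked one and is only partly in capitals.
Ppargc1a, chr5:51567726-51567975, minus strand: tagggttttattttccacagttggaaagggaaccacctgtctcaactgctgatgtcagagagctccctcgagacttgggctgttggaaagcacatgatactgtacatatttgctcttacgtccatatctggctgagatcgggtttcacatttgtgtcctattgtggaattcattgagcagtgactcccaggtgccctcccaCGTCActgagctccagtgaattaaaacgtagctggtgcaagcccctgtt
Bnip3, chr7:138909507-138909756, minus strand: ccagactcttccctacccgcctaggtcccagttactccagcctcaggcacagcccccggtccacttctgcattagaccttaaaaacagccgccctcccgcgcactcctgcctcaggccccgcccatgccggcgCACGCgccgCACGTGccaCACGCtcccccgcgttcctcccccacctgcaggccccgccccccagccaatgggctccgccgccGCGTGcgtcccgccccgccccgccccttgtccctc
Opa1, chr16:29579084-29579333, plus strand: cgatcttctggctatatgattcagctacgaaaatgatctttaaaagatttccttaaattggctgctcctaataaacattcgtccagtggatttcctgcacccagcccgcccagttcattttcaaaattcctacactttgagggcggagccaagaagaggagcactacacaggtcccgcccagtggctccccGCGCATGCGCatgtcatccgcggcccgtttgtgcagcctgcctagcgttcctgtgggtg

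The motifs were searched on both strands in 14 windows of the 9 members that had a promoter entry. Bnip3l had none. In the Ppargc1a window the capitals mark the single match to TGACG, the shorter form of the cyclic AMP response element, which lies on the opposite strand 49 bases before the start. A match to ACGTG, a core of the HIF binding site, overlaps it on the same opposite strand, 51 bases before the start. In the Bnip3 window the capitals mark 2 matches to ACGTG, which share the palindrome CACGTG and start at bases -108 and -107, and 3 matches to GCGTG, the other HIF core, at -117, -99 and -35. In the Opa1 window they mark 1 match to the palindromic core of the NRF1 binding site, a transcription factor of mitochondrial genes, at base -59. Of all 32851 windows of this length, 17.8% held TGACG, 16.6% ACGTG, 28.2% GCGTG and 0.782% the NRF1 core. TGACG was also present in windows of Mfn1, Mfn2 and Mff, GCGTG in windows of Mfn2 and Dnm1l, and ACGTG in 1 window of Mfn2. The full element TGACGTCA and the ERR site AAGGTCA matched none of the 14 windows, while 1.55% and 4.08% of all windows held them. These matches describe letters and were not tested as binding sites.

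All 10 genes gave bright probe sets. The mean log2 signal over the 8 arrays stood between percentile 82.8 (Mfn2) and percentile 99.1 (Bnip3l) of all genes. The retinal origin of the RNA was visible in rod and cone markers, with a list mean of 11.40 to 11.53 log2 units for rods and 10.26 to 10.57 for cones over the arrays. Lists for retinal pigment epithelium (5 genes, all 5 measured, list mean 7.74 to 8.71) and lens (5 genes, all 5 measured, 7.46 to 8.79) varied more, and both were highest on MPTP 1 week array 2. The first principal component, with 38.3% of the variance, set MPTP 1 week array 1 (score 19.1) and saline 1 week array 2 (15.7) apart from the other 6 arrays (-9.39 to -0.39). Results at 1 week are therefore given below with and without these arrays where that turns a direction.

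No gene of the 10, and no gene of all 19938, passed limma's test at an adjusted p of 0.05 in any of the 6 comparisons made. In the same limma fits, 842 genes (4.22%) had an unadjusted p under 0.05 between MPTP and saline at 1 week, 381 genes (1.91%) at 4 weeks and 950 genes (4.76%) over both times. Over both times, the 95% intervals of the 10 genes lay between 0.825-fold and 1.25-fold of the saline level. All values below are log2 signal, in which 1 unit is a doubling, and differences are given with their standard errors from limma. The RNA is of whole retina, so fewer cells of a type and less RNA per cell cannot be told apart.

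**Figure D1:**
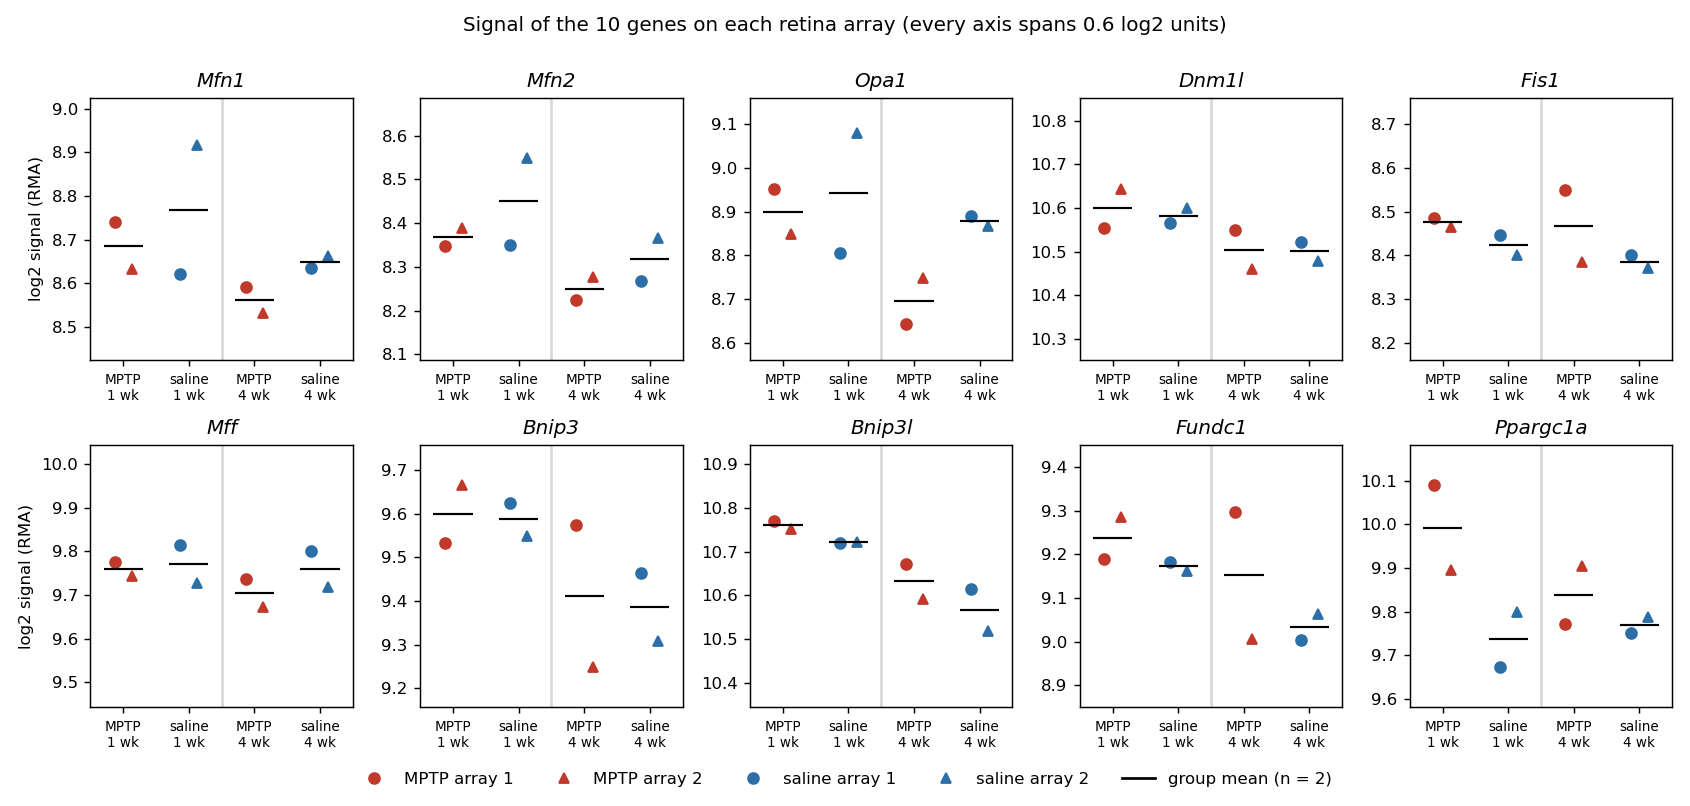
Log2 signal (vertical axis) of each of the 10 genes on each of the 8 arrays, with MPTP in red left of saline in blue at each time; circles are array 1, triangles array 2 and bars the mean of 2 arrays. Ppargc1a at 1 week and Opa1 at 4 weeks have no overlap between MPTP and saline, while Mfn1, Mfn2 and Opa1 are pulled up by saline 1 week array 2.

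Ppargc1a had the widest difference between treatments. At 1 week it stood at 10.09 and 9.89 in MPTP retinas, against 9.67 and 9.80 in saline retinas. Both MPTP arrays were above both saline arrays, and the higher of them was array 1, one of the 2 arrays that stood apart. The difference was 0.26 ± 0.10 (1.19-fold, 95% interval 1.02 to 1.40), with an unadjusted p of 0.0312 and an adjusted p of 1.00 in limma. It ranked at percentile 98.2 of all genes. Without the 2 arrays apart it was 0.22, and without MPTP 1 week array 1 alone it was 0.16. On that array the lens list was at its lowest, 7.46, and the pigment epithelium list stood at 7.85; the part of these tissues in the result was not tested.

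At 4 weeks Ppargc1a stood at 9.77 and 9.90 in MPTP retinas and 9.75 and 9.79 in saline retinas. The groups overlapped, and the difference was 0.068 ± 0.10. Over both times it was 0.16 ± 0.073 (1.12-fold, 95% interval 1.00 to 1.25), with an unadjusted p of 0.0487 and an adjusted p of 0.973 in limma. The MPTP effect at 4 weeks minus that at 1 week was -0.19 ± 0.14 (limma, unadjusted p = 0.222), so the effects at the 2 times were not separated by the test. The group means ran in the order MPTP 1 week (9.99 ± 0.14), MPTP 4 weeks (9.84 ± 0.09), saline 4 weeks (9.77 ± 0.03) and saline 1 week (9.74 ± 0.09; SD, n = 2 each). The saline means differed by less than the SD of saline 1 week, and the mean of MPTP 4 weeks lay above all 4 saline arrays although one of its own arrays did not.

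Ppargc1a has a second, dimmer probe set. It gave 8.29 and 8.02 in MPTP retinas at 1 week, against 7.87 and 8.21 in saline retinas, so the groups overlapped there and the difference was 0.11 ± 0.14. Its level at 4 weeks was 8.14 and 7.87 in MPTP retinas, against 7.79 and 7.88 in saline retinas, a difference of 0.17 ± 0.14. Both probe sets were higher in MPTP at both times, by 0.16 ± 0.073 and 0.14 ± 0.097 over both times, and they did not place the wider difference at the same time.

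**Figure D2:**
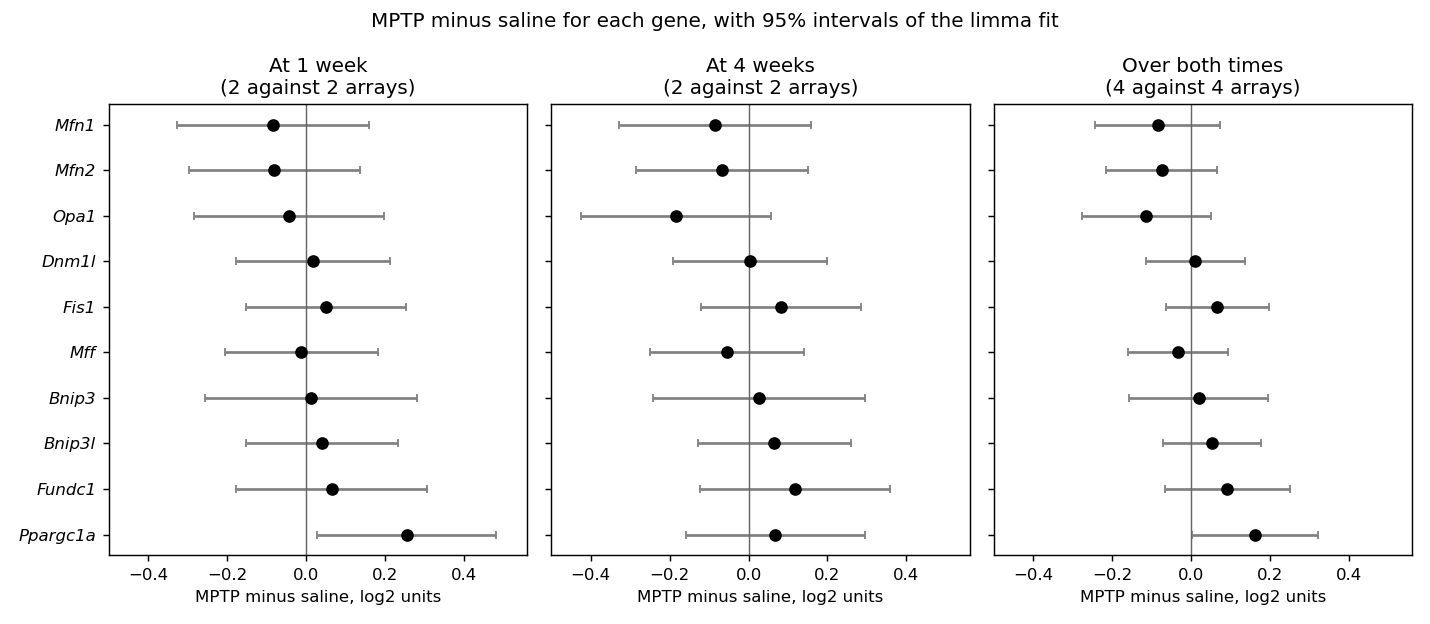
MPTP minus saline in log2 units (horizontal axis) for each gene at 1 week, at 4 weeks and over both times; points are limma estimates and bars 95% intervals. The interval leaves out 0 for Ppargc1a at 1 week and, narrowly, over both times, before any adjustment for the 19938 genes tested.

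The fusion genes pointed the other way. Opa1, the inner-membrane fusion GTPase, stood at 8.64 and 8.75 in MPTP retinas at 4 weeks, against 8.89 and 8.87 in saline retinas. Both MPTP arrays were below both saline arrays. The difference was -0.18 ± 0.11 (0.880-fold, 95% interval 0.745 to 1.04), at percentile 3.2 of all genes, with an unadjusted p of 0.119 and an adjusted p of 1.00 in limma.

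At 1 week Opa1 stood at 8.95 and 8.85 in MPTP retinas and 8.81 and 9.08 in saline retinas. The 2 saline arrays enclosed the MPTP arrays, and the difference was -0.043 ± 0.11. Over both times Opa1 differed by -0.11 ± 0.074 (limma, unadjusted p = 0.156), and the effect at 4 weeks minus that at 1 week was -0.14 ± 0.15 (unadjusted p = 0.376). Its group means ran in the order saline 1 week (8.94 ± 0.19), MPTP 1 week (8.90 ± 0.07), saline 4 weeks (8.88 ± 0.02) and MPTP 4 weeks (8.69 ± 0.07; SD, n = 2 each), and the 3 upper means lay within the spread of the saline 1 week arrays.

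Mfn1, a mitofusin, stood at 8.74 and 8.63 in MPTP retinas at 1 week, against 8.62 and 8.92 in saline retinas. At 4 weeks the arrays read 8.59 and 8.53 in MPTP retinas, against 8.63 and 8.66 in saline retinas. Only at 4 weeks were both MPTP arrays below both saline arrays. The differences were -0.083 ± 0.11 at 1 week, -0.086 ± 0.11 at 4 weeks and -0.084 ± 0.072 over both times.

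Mfn2, the other mitofusin, which also tethers mitochondria to the endoplasmic reticulum, stood at 8.35 and 8.39 in MPTP retinas at 1 week, against 8.35 and 8.55 in saline retinas. At the later time it gave 8.22 and 8.28 in MPTP retinas, against 8.27 and 8.37 in saline retinas. The groups overlapped at both times. The differences were -0.081 ± 0.097, -0.067 ± 0.097 and, over both times, -0.074 ± 0.064.

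The 3 fusion genes were thus below 0 at both times, as were 28% of all genes. Of the other 7 genes, all but Mff were above 0 at both times, as were 26.8% of all genes, although Dnm1l and Bnip3 turned below 0 at 1 week after quantile normalization. Saline 1 week array 2 held the highest value of all 8 arrays for each of the 3 fusion genes. Without this array and MPTP 1 week array 1, the differences at 1 week turned to 0.011 for Mfn1, 0.040 for Mfn2 and 0.042 for Opa1, while those at 4 weeks do not use these arrays. Mfn1 and Mfn2 were each other's nearest member in profile over the 8 arrays (root-mean-square distance of centred log2 signal, 0.0554), and Opa1 was nearest to Mfn1 (0.0575).

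The fission genes varied least. Dnm1l, the division GTPase, stood at 10.55 and 10.64 in MPTP retinas at 1 week, against 10.56 and 10.60 in saline retinas. The 4-week values were 10.55 and 10.46 in MPTP retinas, against 10.52 and 10.48 in saline retinas. The MPTP arrays enclosed the saline arrays at both times, with differences of 0.017 ± 0.087 and 0.0042 ± 0.087.

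Mff, the adaptor for the division GTPase, stood at 9.77 and 9.74 in MPTP retinas at 1 week, against 9.81 and 9.73 in saline retinas. Its level at 4 weeks was 9.74 and 9.67 in MPTP retinas, against 9.80 and 9.72 in saline retinas. The groups overlapped at both times, with differences of -0.012 ± 0.087 and -0.056 ± 0.087. Over the 8 arrays the SD of Mff was at percentile 2.70 of all genes, that of Dnm1l at 8.24 and that of Fis1 at 8.50.

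Fis1, an outer-membrane fission protein, stood at 8.49 and 8.47 in MPTP retinas at 1 week, against 8.45 and 8.40 in saline retinas. At 4 weeks the arrays read 8.55 and 8.38 in MPTP retinas, against 8.40 and 8.37 in saline retinas. There was no overlap at 1 week, and overlap at 4 weeks, where MPTP array 1 alone was high. The differences were 0.052 ± 0.091, 0.082 ± 0.091 and, over both times, 0.067 ± 0.059.

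The mitophagy receptors were slightly higher in MPTP retinas at both times on the probe sets used. Fundc1, a receptor that responds to hypoxia, stood at 9.19 and 9.29 in MPTP retinas at 1 week, against 9.18 and 9.16 in saline retinas. At the later time it gave 9.30 and 9.01 in MPTP retinas, against 9.00 and 9.06 in saline retinas. The groups did not overlap at 1 week, by a narrow gap, and at 4 weeks MPTP array 1 alone was high. The differences were 0.065 ± 0.11, 0.12 ± 0.11 and, over both times, 0.091 ± 0.072, and without MPTP 4 weeks array 1 the difference at 4 weeks was -0.027.

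Bnip3l, also called Nix, stood at 10.77 and 10.75 in MPTP retinas at 1 week, against 10.72 and 10.72 in saline retinas. The 4-week values were 10.67 and 10.59 in MPTP retinas, against 10.61 and 10.52 in saline retinas. There was no overlap at 1 week, and overlap at 4 weeks. The differences were 0.040 ± 0.086, 0.066 ± 0.086 and, over both times, 0.053 ± 0.056.

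Bnip3 stood at 9.53 and 9.67 in MPTP retinas at 1 week, against 9.62 and 9.55 in saline retinas. Its level at 4 weeks was 9.57 and 9.25 in MPTP retinas, against 9.46 and 9.31 in saline retinas. The MPTP arrays enclosed the saline arrays at both times. The differences were 0.012 ± 0.12, 0.026 ± 0.12 and, over both times, 0.019 ± 0.080. The SD over the 8 arrays of the Bnip3 probe set used, at percentile 76.5, was the highest among the probe sets used for the 10 genes.

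Bnip3 and Bnip3l each have a second probe set, and which of them reads the named gene is uncertain. Probe set numbers on this array run largely in genome order: for 96.8% of 21698 probe sets, the 20 nearest numbers name genes mostly on the probe set's own chromosome. Bnip3 lies on chromosome 7, yet the brighter probe set (10414269), used above, has 20 of 20 neighbours on chromosome 14, while the dimmer one (10568785) has 20 of 20 on chromosome 7. Bnip3l lies on chromosome 14, yet its brighter probe set (10394800) has 19 of 20 neighbours on chromosome 12, where RefSeq lists the pseudogene Bnip3l-ps, and the dimmer one (10421003) has 19 of 20 on chromosome 14. The other 9 probe sets of the 10 genes had neighbours mostly on the gene's chromosome; what the probes match was not tested.

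The dimmer Bnip3 probe set gave 9.37 and 9.41 in MPTP retinas at 1 week, against 9.32 and 9.36 in saline retinas. At 4 weeks the arrays read 9.21 and 9.12 in MPTP retinas, against 9.28 and 9.19 in saline retinas. The groups did not overlap at 1 week and overlapped at 4 weeks, with differences of 0.049 ± 0.087 and -0.073 ± 0.087. Bnip3 therefore has no settled direction at 4 weeks. Over the 8 arrays the dimmer probe set read 9.12 to 9.41, a narrower span than the 9.25 to 9.67 of the brighter one.

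The dimmer Bnip3l probe set gave 10.49 and 10.49 in MPTP retinas at 1 week, against 10.46 and 10.47 in saline retinas. At the later time it gave 10.40 and 10.31 in MPTP retinas, against 10.36 and 10.22 in saline retinas. The order of the groups was that of the brighter probe set, with differences of 0.025 ± 0.089 and 0.071 ± 0.089.

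**Figure D3:**
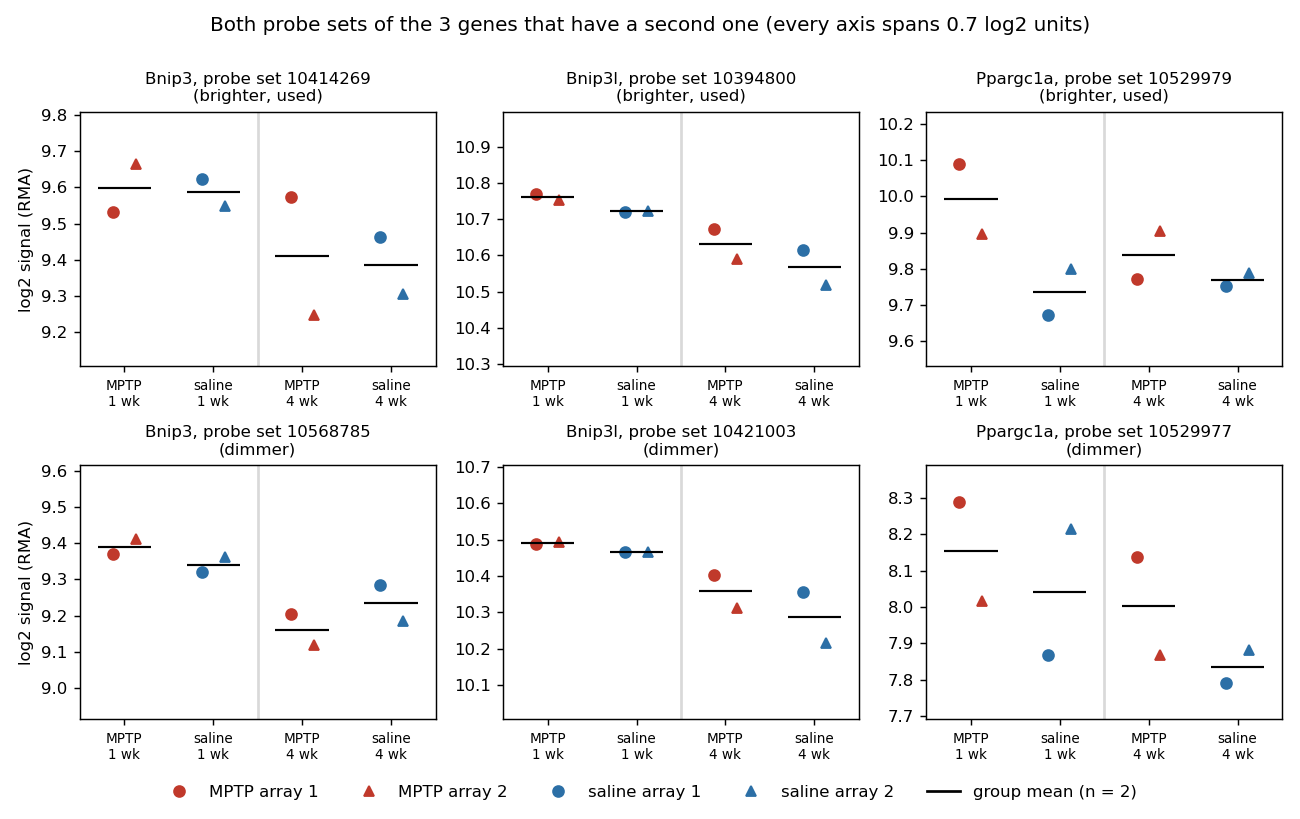
Log2 signal (vertical axis) on the 8 arrays for both probe sets of Bnip3, Bnip3l and Ppargc1a, the brighter above the dimmer, with MPTP in red left of saline in blue at each time and bars for means of 2 arrays. The Bnip3l probe sets keep the same order of arrays closely, while those of Bnip3 and of Ppargc1a do not at either time.

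Counted together, 4 of the 10 genes (Fis1, Bnip3l, Fundc1 and Ppargc1a) had both MPTP arrays above both saline arrays at 1 week, where 12.5% of all genes did, and 0 had them below, where 13.8% did. At 4 weeks 0 genes were above without overlap, against 17.4% of all genes, and 2 (Mfn1 and Opa1) were below, against 17.9%. Over both times 0 of the 10 were without overlap in either direction, against 1.01% of all genes above and 1.49% below. One gene, Ppargc1a, had an unadjusted p under 0.05 at 1 week, where 1.87% of all genes were higher at that level, and over both times, where 2.3% were. The median difference of the 10 genes was 0.014 at 1 week, 0.015 at 4 weeks and 0.015 over both times, beside -0.0081, 0.0043 and -0.0017 for all genes.

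Time was compared within each treatment, 4 weeks minus 1 week, an interval over which the mice also aged. In MPTP retinas all 10 genes were below 0, with a median of -0.12, and 6 of them (Mfn1, Mfn2, Opa1, Dnm1l, Mff and Bnip3l) had both 4-week arrays below both 1-week arrays, where 21.5% of all genes did. In saline retinas 9 of the 10 were below 0, with a median of -0.10, and 5 (Dnm1l, Fis1, Bnip3, Bnip3l and Fundc1) were lower without overlap, where 15.1% of all genes were. None passed limma's test: the adjusted p was 0.529 to 0.975 in MPTP retinas and 1.00 for all 10 in saline retinas. In the same limma fits, 0 of the 10 had an unadjusted p under 0.05 on the probe sets used, beside 1952 genes (9.79%) for MPTP retinas and 424 genes (2.13%) for saline retinas. For the MPTP effect at 4 weeks minus that at 1 week, 0 of the 10 and 391 genes (1.96%) did.

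The lowest time differences were those of Opa1 in MPTP retinas (-0.21 ± 0.11; limma, unadjusted p = 0.086) and Bnip3 in saline retinas (-0.20 ± 0.12; unadjusted p = 0.126). Bnip3 in MPTP retinas differed by -0.19 ± 0.12, and its dimmer probe set, the one numbered among chromosome 7 genes, by -0.23 ± 0.087 there (limma, unadjusted p = 0.0264, adjusted p = 0.501) and by -0.11 ± 0.087 in saline retinas. Bnip3l differed by -0.13 ± 0.086 in MPTP retinas and by -0.15 ± 0.086 in saline retinas. Ppargc1a differed by -0.15 ± 0.10 in MPTP retinas and by 0.034 ± 0.10 in saline retinas, and its dimmer probe set by -0.15 ± 0.14 and -0.20 ± 0.14.

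Other lists were lower at 4 weeks over the same interval. All 4 cone markers were lower without overlap in both treatments, with a median of -0.24 in MPTP retinas and -0.20 in saline retinas, and 3 of them had an unadjusted limma p under 0.05 in MPTP retinas and 1 in saline retinas. The mean of the cone list was 10.52 to 10.56 at 1 week and 10.26 to 10.39 at 4 weeks in MPTP retinas, and 10.49 to 10.57 and 10.32 to 10.35 in saline retinas. Of 15 abundant mitochondrial genes, 14 were below 0 in each treatment, with a median of -0.14 in MPTP retinas and -0.13 in saline retinas. After quantile normalization 12 of them were below 0 in MPTP retinas (median -0.060) and 11 in saline retinas (median -0.076). On the deposited scale, 24 of 28 accessory genes of mitophagy were below 0 in MPTP retinas and 23 in saline retinas. All 4 muscle markers were above 0 in both treatments. The part of these lists in the members' time differences was not tested.

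These directions depend in part on how the arrays were scaled, and bright genes shared them. Among the 9969 genes above the median signal, 69.0% were below 0 in MPTP retinas and 61.4% in saline retinas, beside 46.7% and 49.4% of all genes. After quantile normalization 6 of the 10 genes were below 0 in MPTP retinas, with a median of -0.020, and 7 of the 10 in saline retinas, with a median of -0.050. Dnm1l, Fis1, Mff and Fundc1 turned above 0 in MPTP retinas under that scaling, and Fis1 and Mff did so in saline retinas. Mfn1, Mfn2, Opa1, Bnip3 and Bnip3l were below 0 in both treatments under the deposited scale and under quantile normalization. Without the 2 arrays that stood apart, however, Mfn1 (0.027) and Opa1 (0.072) were above 0 in saline retinas, where 7 of the 10 genes were then below 0 with a median of -0.057. In MPTP retinas 9 of the 10 were then below 0, with a median of -0.13.

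**Figure D4:**
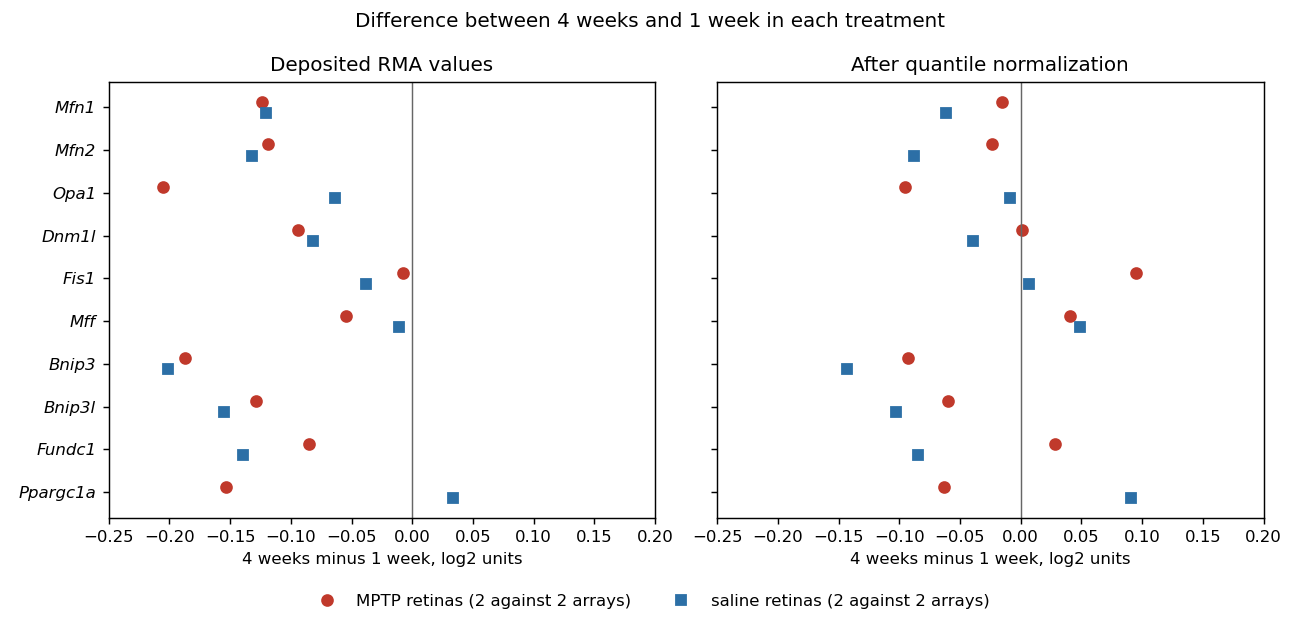
Difference between 4 weeks and 1 week in log2 units (horizontal axis) for each gene, in MPTP retinas (red circles) and saline retinas (blue squares), on the deposited values (left) and after quantile normalization (right). On the right the median of the genes lies nearer 0 in each treatment, and Dnm1l, Fis1, Mff and Fundc1 cross 0 in MPTP retinas. Fis1 in MPTP retinas, and Mff and Ppargc1a in saline retinas, lie farther from 0 than on the left.

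Other genes of the same processes were read from lists by role, again with no gene past an adjusted p of 0.05 (the smallest over both times was 0.973 in limma). Of 28 measured accessory genes of fusion and fission, 11 were above and 17 below 0 over both times, with a median of -0.023, where 51% of all genes were below. Of 28 accessory genes of mitophagy, 11 were above and 17 below, with a median of -0.036, and at 4 weeks 7 were above and 21 below, with a median of -0.052, where 48.2% of all genes and 57.6% of the genes above the median signal were below. Without the 2 arrays that stood apart, the mitophagy list had 14 above and 14 below over both times, with a median of -0.0035, and after quantile normalization it had 10 above and 18 below at 4 weeks, with a median of -0.028. Of 24 genes of mitochondrial biogenesis, 13 were above and 11 below, with a median of 0.0029. Among the listed genes, Phb, Mtfr1, Rhot2, Optn, Ppp2r4 and Perm1 had no probe set that named them alone under these symbols.

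Pink1, the kinase that marks damaged mitochondria, stood at 7.78 and 7.85 in MPTP retinas at 1 week, against 7.96 and 8.04 in saline retinas. The 4-week values were 7.82 and 7.76 in MPTP retinas, against 7.85 and 7.93 in saline retinas. Both MPTP arrays were below both saline arrays at each time, with a difference over both times of -0.14 ± 0.059 (limma, unadjusted p = 0.0376). Calcoco2, an autophagy adaptor, differed by -0.19 ± 0.082 (limma, unadjusted p = 0.0395). It was dim, at 5.38 to 5.77 beside array medians of 6.95 to 7.02, and its groups overlapped at 4 weeks. Gabarap, an autophagosome protein that mitophagy receptors bind, differed by 0.13 ± 0.068.

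Around Ppargc1a, Tfam, the packaging and transcription factor of mitochondrial DNA, stood at 6.96 and 6.65 in MPTP retinas at 1 week, against 6.33 and 6.61 in saline retinas. Its level at 4 weeks was 6.40 and 6.56 in MPTP retinas, against 6.47 and 6.33 in saline retinas. It was without overlap at 1 week only, and the higher MPTP array there was array 1, as for Ppargc1a. Over both times Tfam differed by 0.21 ± 0.096 (limma, unadjusted p = 0.0562), Prkaa2, a catalytic subunit of AMP-activated kinase, by -0.17 ± 0.076 (unadjusted p = 0.0435) and Ssbp1, which binds single-stranded mitochondrial DNA, by 0.11 ± 0.065. In the fission and fusion list, Inf2, a formin of the division site, differed by 0.097 ± 0.062, Miga1, a promoter of fusion, by -0.14 ± 0.099 and Trak1, a motor adaptor of mitochondria, by -0.079 ± 0.055.

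A list of 15 abundant mitochondrial genes, read as a gauge of mitochondrial content, had its median at 0.067 at 1 week, where 11 genes lay above 0 and 4 below it, and at -0.023 at 4 weeks, where 5 lay above 0 and 10 below it. Over both times 10 were above and 5 below, with a median of 0.027, or 8 and 7 without the 2 arrays that stood apart. Of all genes, 53.1% were below 0 at 1 week and 48.2% at 4 weeks. For genes above the median signal these shares were 46.2% and 57.6%. Quantile normalization moved the list's median to 0.038 at 1 week and left the counts there unchanged. It moved the 4-week median to -0.0025, and 7 of the 15 genes were then higher and 8 lower in MPTP retinas. The part of scaling and of signal strength in the list's values was not tested. Cycs, cytochrome c, stood at 10.33, 10.35, 10.24 and 10.15 in MPTP retinas (1 week, then 4 weeks), against 10.03, 10.15, 10.08 and 9.94 in saline retinas. Every MPTP array was above every saline array, although the closest pair both read 10.15, and the difference was 0.22 ± 0.062 (limma, unadjusted p = 0.00513, adjusted p = 0.973). Tomm22, a receptor of the outer-membrane import complex, had the opposite order, with 7.18, 7.11, 7.01 and 7.18 in MPTP retinas against 7.41, 7.45, 7.26 and 7.27 in saline retinas. Its difference was -0.23 ± 0.063 (unadjusted p = 0.00449), and that of Vdac3, an outer-membrane channel, was 0.17 ± 0.060 (unadjusted p = 0.0164).

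A list of 15 HIF targets, of which Bnip3 is one, had 7 above and 8 below 0 over both times, with a median of -0.0077. Ldha, a lactate dehydrogenase subunit, stood at 11.19, 11.17, 11.21 and 11.10 in MPTP retinas (1 week, then 4 weeks), against 11.37, 11.48, 11.25 and 11.32 in saline retinas. Every MPTP array was below every saline array, with a difference of -0.19 ± 0.061 (limma, unadjusted p = 0.0110). Ndrg1 differed by -0.19 ± 0.070 (limma, unadjusted p = 0.0202) and Vegfa, the vascular growth factor, by -0.14 ± 0.071, both also without overlap over the 8 arrays. Bnip3 differed by 0.019 ± 0.080 on the brighter probe set, used in this list, and by -0.012 ± 0.060 on the dimmer one. Which of these probe sets reads Bnip3 is uncertain.

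**Figure D5:**
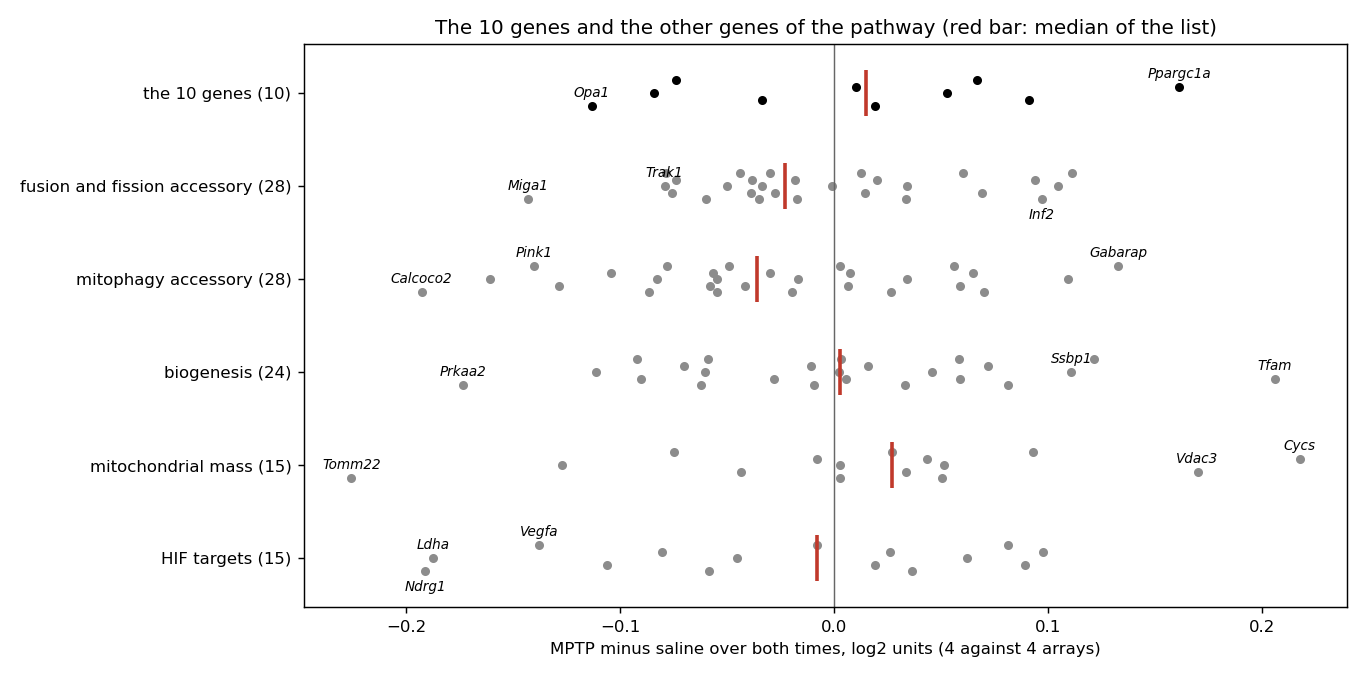
MPTP minus saline over both times in log2 units (horizontal axis) for the 10 genes and for the measured genes of 5 related lists, 1 point a gene, with the number of genes in brackets and a red bar at each list's median. The medians stay between -0.036 and 0.027, and Ppargc1a and Opa1 mark the ends of the 10 genes.

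The genes most like Bnip3 and Ppargc1a were sought by the root-mean-square distance of centred log2 signal over the 8 arrays, among genes that varied at least 0.8 times as much. For Bnip3 they were Srp14 (0.0421), Taldo1 (0.0422) and Tmem50b (0.0453) of 6897 candidates. For Ppargc1a they were Rpp38 (0.0370), Pomt2 (0.0430) and Brk1 (0.0431) of 9494. Within the 10 genes, Bnip3l and Dnm1l were nearest to each other (0.0472), and Ppargc1a had no member closer than Bnip3l, at 0.120. Bnip3 and Bnip3l were read here on their brighter probe sets, and which gene these read is uncertain.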

How the data were processed

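The authors deposited log2 signals. The submitters' processing notes name Affymetrix Expression Console and RMA, without versions. RNA (100 ng) was amplified by SPIA and labelled with biotin, per the labels' protocols. Of 28944 probe sets, 21789 name exactly 1 gene in the platform annotation, and the one with the highest mean was kept for the 999 genes with several, which left 19938 genes with no filter on dim ones. The number of arrays limits the precision. Symbols of 19856 genes had a RefSeq entry.

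Group means over all 8 arrays (4 residual degrees of freedom), and time and treatment as additive terms (5) for the comparison over both times, were fitted with limma 3.58.1 in R 4.3.3 (two-sided). Adjusted p-values are Benjamini-Hochberg values over the 19938 genes of a comparison, with 0.05 as the threshold. The code was tested on simulated data. Promoter sequences are those of RefSeq (GRCm38.p6). Figures were drawn with matplotlib 3.10.9 in Python 3.11.15.

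The 10 genes, lists and tests were chosen with earlier results of these data known. Named besides the 10 were the 3 genes of each list with the smallest unadjusted p over both times, the brightest marker or whole list of a tissue, and the 3 nearest profiles to Bnip3 and Ppargc1a. Deviations of arrays that share a number correlated at -0.383 to 0.207 between groups. With 2 arrays a group, 2 of which stand apart, these values cannot tell whether arrays of the same number belong together. The main fits used no pairing. Alternatives were other scalings, a filter on dim genes, other probe set choices, moderated spread with trend, fits limited to the compared groups, a block for the array number and each array left out. Cyclic loess, leaving out the 2 arrays that stand apart, the dimmer probe set and the exchanged block were chosen after seeing the data.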

Additional observations from a re-analysis of the deposited data

How the results depend on the processing

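No member passed an adjusted p of 0.05 in limma under any alternative, and no gene did, except 1 gene for MPTP 4 weeks minus 1 week without MPTP 1 week array 1 (0 to 1 when arrays were left out in turn) and 1 without the 2 arrays that stand apart. In both cases it was Rny1, which is outside the lists and is named because of this count. The direction was kept under every alternative by Ppargc1a, Fis1, Bnip3l and Fundc1 at 1 week, by Mfn1, Mfn2, Opa1, Mff, Bnip3l and Ppargc1a at 4 weeks, and over both times by all members but Dnm1l and Bnip3. Ppargc1a at 1 week ranged from 0.11 (dimmer probe set) to 0.35, and Opa1 at 4 weeks from -0.24 to -0.13.

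With arrays left out in turn, the members' median lay at -0.041 to 0.037 at 4 weeks, -0.024 to 0.048 over both times, -0.067 to 0.029 for the effect at 4 weeks minus that at 1 week, -0.15 to -0.069 for time in MPTP retinas and -0.14 to -0.057 for time in saline retinas. Single members crossed 0 when 1 array was left out. At 1 week these were Mfn1 (-0.23 to 0.065), Mfn2 (-0.18 to 0.020), Opa1 (-0.18 to 0.094), Dnm1l (-0.028 to 0.062), Mff (-0.055 to 0.032) and Bnip3 (-0.054 to 0.079). At 4 weeks they were Dnm1l (-0.041 to 0.049), Fis1 (-0.0010 to 0.17), Bnip3 (-0.14 to 0.19) and Fundc1 (-0.027 to 0.26), and over both times Dnm1l (-0.0088 to 0.030) and Bnip3 (-0.047 to 0.083). For time they were Fis1 (-0.091 to 0.075) and Fundc1 (-0.23 to 0.060) in MPTP retinas and Mfn1 (-0.27 to 0.027), Opa1 (-0.20 to 0.072), Mff (-0.054 to 0.033) and Ppargc1a (-0.029 to 0.096) in saline retinas.

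Quantile normalization gave a median of -0.020 at 1 week, 0.045 for the difference of effects, -0.020 for MPTP time and -0.050 for saline time. Under it the turned values were Dnm1l -0.030 and Bnip3 -0.011 at 1 week, Dnm1l -0.0098 over both times, Dnm1l 0.0015, Fis1 0.095, Mff 0.041 and Fundc1 0.028 for MPTP time and Fis1 0.0067 and Mff 0.048 for saline time. Cyclic loess gave medians of 0.055 for the difference of effects, -0.025 for MPTP time and -0.051 for saline time. Its turned values were Dnm1l -0.016 and Bnip3 -0.014 at 1 week, Dnm1l -6.6e-04 over both times, Fis1 0.088, Mff 0.046 and Fundc1 0.017 for MPTP time and Fis1 0.0078 and Mff 0.042 for saline time. Centring on array medians gave a median of -0.16 for MPTP time and Dnm1l -0.011 at 4 weeks. Without the 2 arrays apart the median was -0.045 for the difference of effects and -0.057 for saline time, with Mfn1 0.011, Mfn2 0.040 and Opa1 0.042 at 1 week, Mfn1 0.027 and Opa1 0.072 for saline time and Fis1 0.0024 for MPTP time. The dimmer probe set gave a median of -0.026 at 4 weeks, with Bnip3 -0.073 at 4 weeks and -0.012 over both times, and Ppargc1a 0.055 for the difference of effects and -0.20 for saline time. The mean of probe sets gave Bnip3 -0.024 at 4 weeks and Ppargc1a -0.086 for saline time. The cause of these turns was not tested.

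Genes at an unadjusted p under 0.05 numbered 477 to 1876 at 1 week (842 as reported), 195 to 942 at 4 weeks (381), 597 to 1604 over both times (950), 127 to 1445 for the difference of effects (391), 1110 to 3141 for MPTP time (1952) and 198 to 1688 for saline time (424). The replicate block takes the array number as a pair, although whether the numbers pair the arrays is not known. It gave 0 genes past the adjusted threshold and 713 genes at an unadjusted p under 0.05 at 1 week. For Ppargc1a there it gave a limma p of 0.0461, unadjusted. With the numbers of saline 1 week exchanged, the block gave 1121 genes at 1 week and 526 at 4 weeks at that level.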
